A study of Mus musculus with 5 samples.

Results

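The cathepsins and lysosomal genes described here are 33 genes that encode proteases, glycosidases, lipid-handling proteins, membrane proteins and regulators of the lysosome. They were taken as all array features whose gene symbol in the platform annotation is 1 of the 33 names, which gave 59 of the 45018 features of the array. All 33 genes had at least 1 feature, and 15 of them had several. The arrays were 1-colour (Cy3) Agilent arrays, 1 for each of 5 pro-B cell cultures from mouse fetal liver, the stage of the B lineage at which the heavy chain gene is rearranged. The 2 control arrays (control 3 and control 6) carry the genotype Ebf+/fl, with 1 floxed allele of the B-lineage transcription factor Ebf1. The 3 arrays called deleted here (deleted 4, deleted 5 and deleted 7) carry Ebf fl/fl, with both alleles floxed. The livers came from embryos of 16.5 dpc (days post coitum), and the cells were kept on OP-9 stroma with interleukin-7 until they were pure pro-B cells. All were exposed to 4-hydroxytamoxifen for 24 hours, which activates the ER-Cre they carry (Cre joined to an oestrogen receptor domain), and were kept for 4 more days, so the controls also had active Cre. The comparison asked how the level of each lysosomal gene differed between cultures with both Ebf1 alleles floxed and cultures with 1 floxed.

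Lysosomes are acidic organelles in which hydrolases break down proteins, sugar chains, glycogen and lipids that arrive by endocytosis or autophagy. Most cathepsins are cysteine proteases of the papain family, while Ctsd and Ctse are aspartic proteases and Ctsa is a serine carboxypeptidase. In antigen-presenting cells, B cells among them, the same enzymes cut antigens and the invariant chain Cd74 so that peptides can bind MHC class II molecules. Many lysosomal genes carry the E-box core CACGTG near their start, which is bound by the transcription factor Tfeb and its relatives.

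The stretches below show where that E-box core lies before the start of some of the members, and most of those shown hold it. They are from RefSeq on build GRCm38.p6, read 5′ to 3′ on the strand of the gene, and the capitals mark CACGTG. The first 4 are from genes that rose, Ctsd and Mcoln1 did not pass the test, and Ctss and Hexa rose and are shown because their stretch holds no match.
Lamp1: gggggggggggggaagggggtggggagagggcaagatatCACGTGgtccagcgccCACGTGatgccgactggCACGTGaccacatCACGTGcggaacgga
Ctsa: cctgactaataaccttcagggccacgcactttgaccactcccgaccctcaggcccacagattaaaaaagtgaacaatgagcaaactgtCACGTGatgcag
Lgmn: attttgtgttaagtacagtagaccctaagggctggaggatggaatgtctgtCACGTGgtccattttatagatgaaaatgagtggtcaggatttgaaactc
Ctsl: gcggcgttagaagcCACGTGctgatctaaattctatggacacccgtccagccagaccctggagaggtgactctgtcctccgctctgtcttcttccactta
Ctsd: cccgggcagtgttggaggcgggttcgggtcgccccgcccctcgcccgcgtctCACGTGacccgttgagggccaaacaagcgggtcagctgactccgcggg
Mcoln1: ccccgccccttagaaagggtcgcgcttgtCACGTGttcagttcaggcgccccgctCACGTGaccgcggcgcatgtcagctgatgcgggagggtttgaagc
Ctss: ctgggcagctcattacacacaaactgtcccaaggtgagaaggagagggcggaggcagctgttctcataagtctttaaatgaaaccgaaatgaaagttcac
Hexa: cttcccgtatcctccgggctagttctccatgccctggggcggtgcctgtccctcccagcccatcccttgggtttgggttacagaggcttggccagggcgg

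The Lamp1 stretch is chr8:13159061-13159160 (+ strand), the Ctsa stretch chr2:164833673-164833772 (+ strand), the Lgmn stretch chr12:102439093-102439192 (- strand) and the Ctsl stretch chr13:64370671-64370770 (- strand). The Ctsd stretch is chr7:142387878-142387977 (- strand), the Mcoln1 stretch chr8:3500419-3500518 (+ strand), the Ctss stretch chr3:95526686-95526785 (+ strand) and the Hexa stretch chr9:59539440-59539539 (+ strand). Each is 100 bases long and ends 1 base before the start, except those of Ctsl, which begins at position -250 from it, and of Ctsd, which begins at position -150. Lamp1 held 4 copies of the core within 61 bases of its start. Ctsa held 1 copy before the start shown and another that begins at base 6 after it. Ctsa and Lgmn each have another annotated start, not shown, and the bases from 250 before to 50 after it held no copy. Ctsd held a further copy that begins at position -245, outside the stretch shown.

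Of the 33 members 28 had a promoter in the RefSeq table, taken as 250 bases before to 50 after the start, and Ctsb, Ctse, Ctsh, Ctsw and Npc1 did not. CACGTG, which reads the same on both strands, was in at least 1 promoter of 11 of these 28 genes (39.3%), against 8.09% of 27025 genes in the table. The longer form TCACGTGA, which contains it, was in 5 of 28 (17.9%), against 1.12%. The palindrome bound by Ebf1 (TCCC and GGGA with any 2 bases between them) was in 0 of 28, against 1.06% of all genes. Among members with a promoter, CACGTG was in 5 of the 12 that rose (41.7%) and in 6 of the 16 that did not pass (37.5%), and TCACGTGA in 1 of 12 and 4 of 16. These counts describe letters in a fixed window and were not tested.

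Of the 33 lysosomal genes, 15 rose in deleted cells, 0 fell and 18 did not pass, at an adjusted p under 0.05 over all 13419 genes tested. This was 45.5% of the members, against 8.58% of all genes that rose and 8.74% that fell. The 15 that rose were the proteases Ctsh, Ctsl, Lgmn, Ctss, Ctsw, Ctsc, Ctsb, Ctsa and Tpp1, the glycosidases Hexa, Gusb and Gaa, and the membrane proteins Cd63, Lamp1 and Laptm5. Their fold changes ran from 1.44 for Gaa to 57.7 for Ctsh, and their median log2 fold change was 0.99. By these estimates 7 of the 33 (21.2%) rose at least 2-fold, against 4.8% of all genes. The 7 include Ctsw, whose controls were too dim for more than a lower limit of 1.87-fold. Over all 33 members the median log2 fold change was 0.63, against 0.10 over all genes tested. Every deleted array lay above both controls for 24 of 33 members (72.7%), against 30.5% of all genes, and for 0 members did every deleted array lie below both controls, against 21.2%. Without scaling between arrays 669 genes rose and 1062 fell, with 11 members that rose and 0 that fell. Of 7 stromal markers tested 1 rose, and the median log2 fold change of the 7 was 0.57. For 5 of them every deleted array lay above both controls, and for 1, Fn1, every deleted array lay below both. The part of stromal cells in these counts was not tested. In bulk RNA of this kind a change in the share of cells that express a gene and a change in RNA per cell cannot be told apart.

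All levels are log2 intensities of the brightest feature of a gene minus the 75th percentile of its array, and differences are deleted minus control on that scale. All 33 members passed the filter on dim genes (above the 40th percentile of the array on at least 2 of 5 arrays). Ctsw passed it through the deleted arrays alone, so it had to differ, and without it 14 of 32 members rose (43.8%). Ctsw is also among the 24 members with every deleted array above both controls. The 8.58% of all genes that rose still includes genes that passed the filter in this way, and was not recomputed without them. The number of members that rose was 5 without control 3, 6 without control 6, 7 without deleted 4, 8 without deleted 5 and 13 without deleted 7. Over all genes the number that rose in these 5 fits was 388, 720, 633, 588 and 974, against 1151. Ctsh, Ctsl, Lgmn, Ctss and Hexa passed in each of these 5 fits. The number 111 opens the titles of both controls and 93 those of all 3 deleted samples, so the genotype and whatever that number stands for cannot be told apart.

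**Figure D1:**
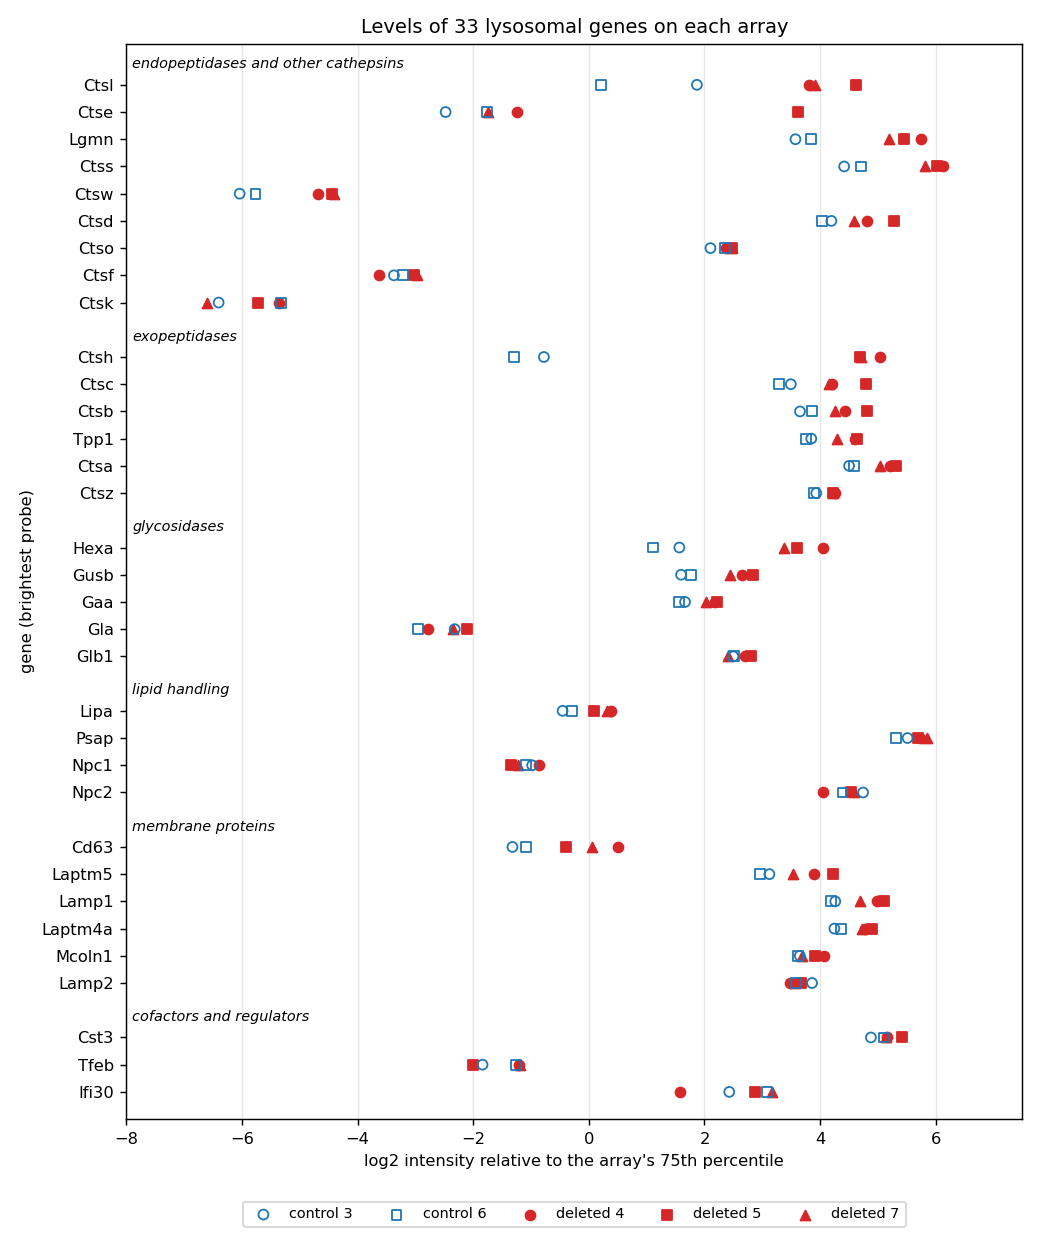
Level of each of the 33 genes on each array, as log2 intensity minus the 75th percentile of the array (horizontal axis), with genes grouped by role (vertical axis). Open blue symbols are the 2 control arrays and filled red symbols the 3 deleted arrays; for 24 genes all red symbols lie to the right of both blue ones, with the widest gap at Ctsh and a lone high array, deleted 5, at Ctse.

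The arrays had summed intensities of 66780000 to 79527000. Over the genes tested, the arrays of 1 group correlated with Pearson's r of 0.979 to 0.982, against 0.926 to 0.959 between groups, a description across genes that are not independent. Of 3 Ebf1 probes 1 fell by 3.02 on the log2 scale (adjusted p = 0.0037 over 28007 probes, SE 0.35), and the other two had log2 fold changes of -0.25 and 0.44 that did not pass (adjusted p = 0.32 and 0.27). The exons that these probes match were not determined here. Of 9 pro-B markers tested 5 were lower, among them Il7r, Igll1 and Vpreb1, and Igll1 and Vpreb1 lost the call without control 3, control 6 or deleted 5 (adjusted p from 0.0818 to 0.192). Over all genes tested 8.74% were lower. Blnk, Pax5, Cd79b and Cd79a did not pass, with log2 fold changes of -0.55, -0.53, -0.04 and 0.01. The summed level of the whole pro-B list (in units of the 75th percentile of the array) was 1434.5 and 1537.9 in controls and 701.59 to 908.77 in deleted cells. Blnk made up 32.9% to 49.9% of this sum. Without Blnk the sum was 917.94 and 1031.3 in controls and 351.34 to 532.35 in deleted cells.

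Among the proteases, the largest change was in Ctsh, an aminopeptidase that can also cut within chains. The level of Ctsh was -0.78 on control 3, -1.30 on control 6, 5.04 on deleted 4, 4.70 on deleted 5 and 4.71 on deleted 7. Both controls were low, all 3 deleted arrays were high, and no array lay between -0.78 and 4.70. Ctsh rose 57.7-fold (log2 fold change 5.85, SE 0.20, adjusted p = 0.00014). Without single arrays the log2 fold change of Ctsh stayed between 5.59 and 6.11. Only 1 feature measures it on this array.

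Ctsl, a cysteine endopeptidase that can degrade the invariant chain in thymic epithelium, had the next largest change among members that rose. Its level was 1.87 on control 3, 0.21 on control 6, 3.80 on deleted 4, 4.61 on deleted 5 and 3.91 on deleted 7. The controls differed from each other by more than the deleted arrays did, and the groups did not overlap. Ctsl rose 8.38-fold (log2 fold change 3.07, SE 0.49, adjusted p = 0.0096). Its log2 fold change was 3.89 without control 3 (adjusted p = 0.0060) and 2.24 without control 6 (adjusted p = 0.020).

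Lgmn, the asparaginyl endopeptidase legumain, starts the cutting of several antigens and cathepsin precursors. Its level was 3.57 and 3.84 on controls 3 and 6, and 5.74, 5.45 and 5.20 on deleted 4, 5 and 7. Lgmn rose 3.38-fold (log2 fold change 1.76, SE 0.20, adjusted p = 0.0032), with a gap between the groups wider than the spread within either. Ctss, the cysteine endopeptidase that makes the last cuts in the invariant chain in B cells and dendritic cells, had levels of 4.42 and 4.71 on the controls. On deleted 4, 5 and 7 the level of Ctss was 6.13, 6.02 and 5.81. Ctss rose 2.69-fold (log2 fold change 1.43, SE 0.17, adjusted p = 0.0037), and its groups did not overlap.

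Ctsk, a collagen-degrading cathepsin of osteoclasts, lies next to Ctss with no protein-coding gene between them in the RefSeq annotation. The level of Ctsk was -6.40 and -5.32 on the controls and -5.35, -5.72 and -6.60 on deleted 4, 5 and 7. It exceeded the 40th percentile on 1 of 2 controls and 1 of 3 deleted arrays, so its log2 fold change of -0.03 (95% interval -1.46 to 1.40) is that of a feature near the dim limit. The difference in response between Ctss and Ctsk was not tested.

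Ctsw, a cathepsin known from cytotoxic lymphocytes, was dim throughout. Its level was -6.04 and -5.76 on the controls, both below the 40th percentile, and -4.68, -4.44 and -4.42 on deleted 4, 5 and 7, all above it. Against the 40th percentile as the lower limit, Ctsw was at least 1.87-fold higher in deleted cells (adjusted p = 0.048). The only Ctsw feature did not pass in the fit over single probes (adjusted p = 0.053). Ctsw did not pass without control 3, control 6, deleted 4, deleted 5 or deleted 7 (adjusted p = 0.210, 0.101, 0.106, 0.0955 and 0.0920), nor with an offset of 50 intensity units, where its log2 fold change was 0.34, nor with no filter (adjusted p = 0.0567).

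Ctse, an aspartic protease found in immune cells and gut, was set apart by 1 array. Its level was -2.48 and -1.76 on the controls, -1.25 on deleted 4, 3.61 on deleted 5 and -1.75 on deleted 7. Deleted 5 was more than 4 log2 units above every other array, and deleted 7 lay next to control 6. The log2 fold change of Ctse was 2.33 (SE 1.51, adjusted p = 0.34), and it was 0.62 without deleted 5, 3.05 without deleted 4 and 3.30 without deleted 7. The remaining proteases of this kind did not pass. Ctsd, the main aspartic protease of lysosomes, had levels of 4.20 and 4.03 on the controls and 4.81, 5.27 and 4.59 on deleted 4, 5 and 7. Its brightest probe did not pass at 0.78 (SE 0.22, adjusted p = 0.056), which passed without deleted 7 (0.93, adjusted p = 0.039), while another Ctsd probe gave 0.63 (adjusted p = 0.036 over all probes). Ctsf and Ctso are cysteine cathepsins, and their log2 fold changes were 0.08 (95% interval -0.66 to 0.83) for Ctsf and 0.21 (-0.13 to 0.55) for Ctso.

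The other exopeptidases changed by less than Ctsh. Of 6 exopeptidases 5 rose, and all 6 had every deleted array above both controls. Over all genes tested the shares were 8.58% and 30.5%. Ctsc, a dipeptidyl peptidase that activates granule serine proteases, had levels of 3.49 and 3.29 on the controls and 4.20, 4.79 and 4.15 on deleted 4, 5 and 7. Ctsc rose 1.99-fold (log2 fold change 0.99, SE 0.22, adjusted p = 0.029). Ctsb, a dipeptidyl carboxypeptidase that also cuts within chains, stood at 3.65 and 3.86 on the controls and 4.44, 4.81 and 4.26 on the deleted arrays, and rose 1.68-fold (adjusted p = 0.045), and in the fit over single probes neither this probe (adjusted p = 0.055) nor the other, with a log2 change of 0.55, passed. Tpp1, a tripeptidyl peptidase, stood at 3.85 and 3.76 on the controls and 4.61, 4.64 and 4.29 on the deleted arrays, and rose 1.63-fold (adjusted p = 0.029), while its other probe had 0.72 without passing. These genes share a pattern in which deleted 5 was the highest array and deleted 7 the lowest of the deleted ones.

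Ctsa, a carboxypeptidase that also shields the glycosidases Neu1 and Glb1, had levels of 4.50 and 4.58 on the controls and 5.21, 5.32 and 5.04 on deleted 4, 5 and 7. Ctsa rose 1.57-fold (log2 fold change 0.65, SE 0.14, adjusted p = 0.029), and its other probes gave 0.42 and 0.83 without passing. Neu1, a sialidase that was named here after its values were seen, fell by 0.96 on the log2 scale (SE 0.19, adjusted p = 0.020), with levels of 5.26 and 5.43 on the controls and 4.42, 4.64 and 4.11 on the deleted arrays. The call of Neu1 was lost without control 3 (adjusted p = 0.0879) and without control 6 (0.0895). Ctsz, a carboxypeptidase, did not pass, at a log2 difference of 0.33 (95% interval 0.03 to 0.62, adjusted p = 0.12), and its other probe gave 0.31.

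Without control 3 the adjusted p was 0.109 for Ctsc, 0.246 for Ctsb, 0.134 for Tpp1 and 0.182 for Ctsa, and without control 6 it was 0.119, 0.0979, 0.118 and 0.0961. Without deleted 4 it was 0.0883 for Ctsb, 0.0858 for Tpp1 and 0.0849 for Ctsa, and without deleted 5 it was 0.0668, 0.0668 and 0.0530. The direction was the same in each of these fits.

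Of the 5 glycosidases 3 rose, against 8.58% of all genes tested. Hexa, the alpha subunit of beta-hexosaminidase, which degrades gangliosides, had levels of 1.57 on control 3, 1.11 on control 6, 4.06 on deleted 4, 3.61 on deleted 5 and 3.37 on deleted 7. The groups were more than 1 log2 unit apart. Hexa rose 5.06-fold (log2 fold change 2.34, SE 0.24, adjusted p = 0.0025).

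Gusb, the beta-glucuronidase, was measured by 11 features, of which 10 share 1 transcript accession and show the spread within an array. Over these 10 features the mean level of Gusb was 1.65 ± 0.09 (SD over features) on control 3, 1.73 ± 0.06 on control 6, 2.56 ± 0.06 on deleted 4, 2.70 ± 0.06 on deleted 5 and 2.31 ± 0.08 on deleted 7. The highest of them on any control was 1.85 and the lowest on any deleted array was 2.19, so no feature overlapped between groups. All 11 features rose in the fit over probes, with log2 fold changes from 0.71 to 0.96, and the 1 with another accession gave 0.85. The brightest rose 1.94-fold (adjusted p = 0.013, SE 0.17 in log2 units) and lost the call without control 3 (adjusted p = 0.0909).

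**Figure D2:**
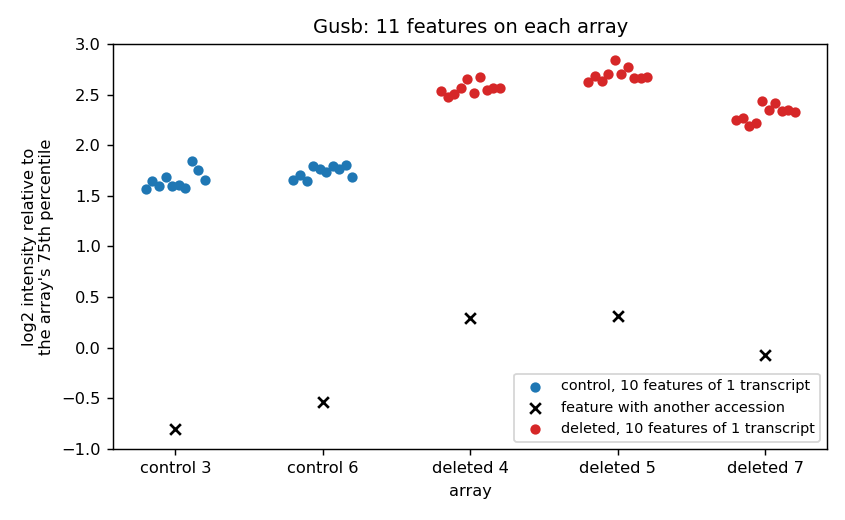
Level of Gusb at each of its 11 features (vertical axis, log2 intensity minus the 75th percentile of the array) on each array (horizontal axis), with 10 features of 1 transcript accession as dots and the remaining feature as a cross. The dots of a single array span less than 0.3 and those of the groups do not overlap (at most 1.85 on controls, at least 2.19 on deleted arrays).

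Gaa, the acid glucosidase that degrades glycogen, had levels of 1.66 and 1.56 on the controls and 2.18, 2.21 and 2.02 on deleted 4, 5 and 7. Gaa rose 1.44-fold (log2 fold change 0.53, SE 0.14, adjusted p = 0.046), and did not pass without control 3, control 6, deleted 4, deleted 5 or deleted 7 (adjusted p = 0.159, 0.162, 0.140, 0.0901 and 0.0613). In the fit over single probes the only Gaa feature did not pass (adjusted p = 0.062). Glb1, the beta-galactosidase, had levels of 2.50 and 2.51 on the controls and 2.70, 2.80 and 2.41 on the deleted arrays, a log2 difference of 0.13 (95% interval -0.25 to 0.52). The other Glb1 probe gave -0.11. Gla, the alpha-galactosidase, did not pass, at a log2 difference of 0.22 (95% interval -0.54 to 0.98), and its groups overlapped.

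Of the 6 membrane proteins 3 rose, against 8.58% of all genes tested. Cd63, a tetraspanin of late endosomes and lysosomes, had levels of -1.32 on control 3, -1.08 on control 6, 0.51 on deleted 4, -0.40 on deleted 5 and 0.05 on deleted 7. Cd63 rose 2.39-fold (log2 fold change 1.26, SE 0.28, adjusted p = 0.029), and the deleted arrays were spread over almost 1 log2 unit. Lamp1, an abundant glycoprotein of the lysosomal membrane, stood at 4.26 and 4.19 on the controls and 4.99, 5.11 and 4.70 on deleted 4, 5 and 7, and rose 1.63-fold (adjusted p = 0.033). Laptm5, a lysosomal protein of blood cells that lowers surface antigen receptors, stood at 3.12 and 2.96 on the controls and 3.89, 4.22 and 3.54 on the deleted arrays. It rose 1.79-fold (log2 fold change 0.84, SE 0.21, adjusted p = 0.041), and its other probe gave 0.84 without passing.

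Cd63, Lamp1 and Laptm5 lost the call without control 3 (adjusted p = 0.159, 0.152 and 0.149), without control 6 (0.0721, 0.128 and 0.148) or without deleted 4 (0.0550, 0.0903 and 0.0901). Lamp1 and Laptm5 also did not pass without deleted 5 (0.0657 and 0.0726), nor Cd63 without deleted 7 (0.0614). Laptm4a, a relative of Laptm5, had levels of 4.25 and 4.36 on the controls and 4.79, 4.89 and 4.72 on the deleted arrays, a log2 difference of 0.49 (SE 0.13, adjusted p = 0.0503). Mcoln1, the calcium channel of lysosomes, did not pass either, at a log2 difference of 0.25 (95% interval -0.11 to 0.62). The 3 probes of Lamp2, a membrane protein that acts in chaperone-mediated autophagy, carry different transcript accessions and disagreed in sign, with log2 fold changes of -0.14, 0.36 and -0.41, none past the threshold.

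The 4 lipid-handling genes and the 3 cofactors and regulators held 0 genes that passed. Psap, the precursor of the saposins that help degrade sphingolipids, had levels of 5.51 and 5.31 on the controls and 5.72, 5.69 and 5.84 on deleted 4, 5 and 7, a log2 difference of 0.34 (95% interval -0.0031 to 0.69, adjusted p = 0.15). Lipa, the acid lipase, stood at -0.45 and -0.29 on the controls and 0.39, 0.08 and 0.31 on the deleted arrays, a log2 difference of 0.63 (SE 0.17, adjusted p = 0.051). A further probe of Lipa and one of Npc1 were too dim to be tested. Npc1 and Npc2, which together export cholesterol, differed by -0.12 (95% interval -0.63 to 0.39) and by -0.17 (-0.68 to 0.33) on the log2 scale.

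Ifi30, a thiol reductase that opens disulfide bonds of antigens for class II presentation, had levels of 2.43 on control 3, 3.08 on control 6, 1.57 on deleted 4, 2.88 on deleted 5 and 3.17 on deleted 7. Deleted 4 was the lowest array and deleted 7 the highest, and the groups overlapped. Its log2 fold change was -0.21 (95% interval -1.35 to 0.92), and it was 0.27 without deleted 4 and 0.11 without control 6. Cst3, a secreted inhibitor of cysteine cathepsins, had levels of 4.88 and 5.11 on the controls and 5.15, 5.42 and 5.15 on the deleted arrays, a log2 difference of 0.25 (95% interval -0.14 to 0.63). Tfeb, the transcription factor that binds the E-box of lysosomal genes, stood at -1.84 and -1.26 on the controls and -1.21, -2.0 and -1.20 on the deleted arrays. The log2 fold change of Tfeb was 0.08 (95% interval -0.70 to 0.87), and its groups overlapped.

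**Figure D3:**
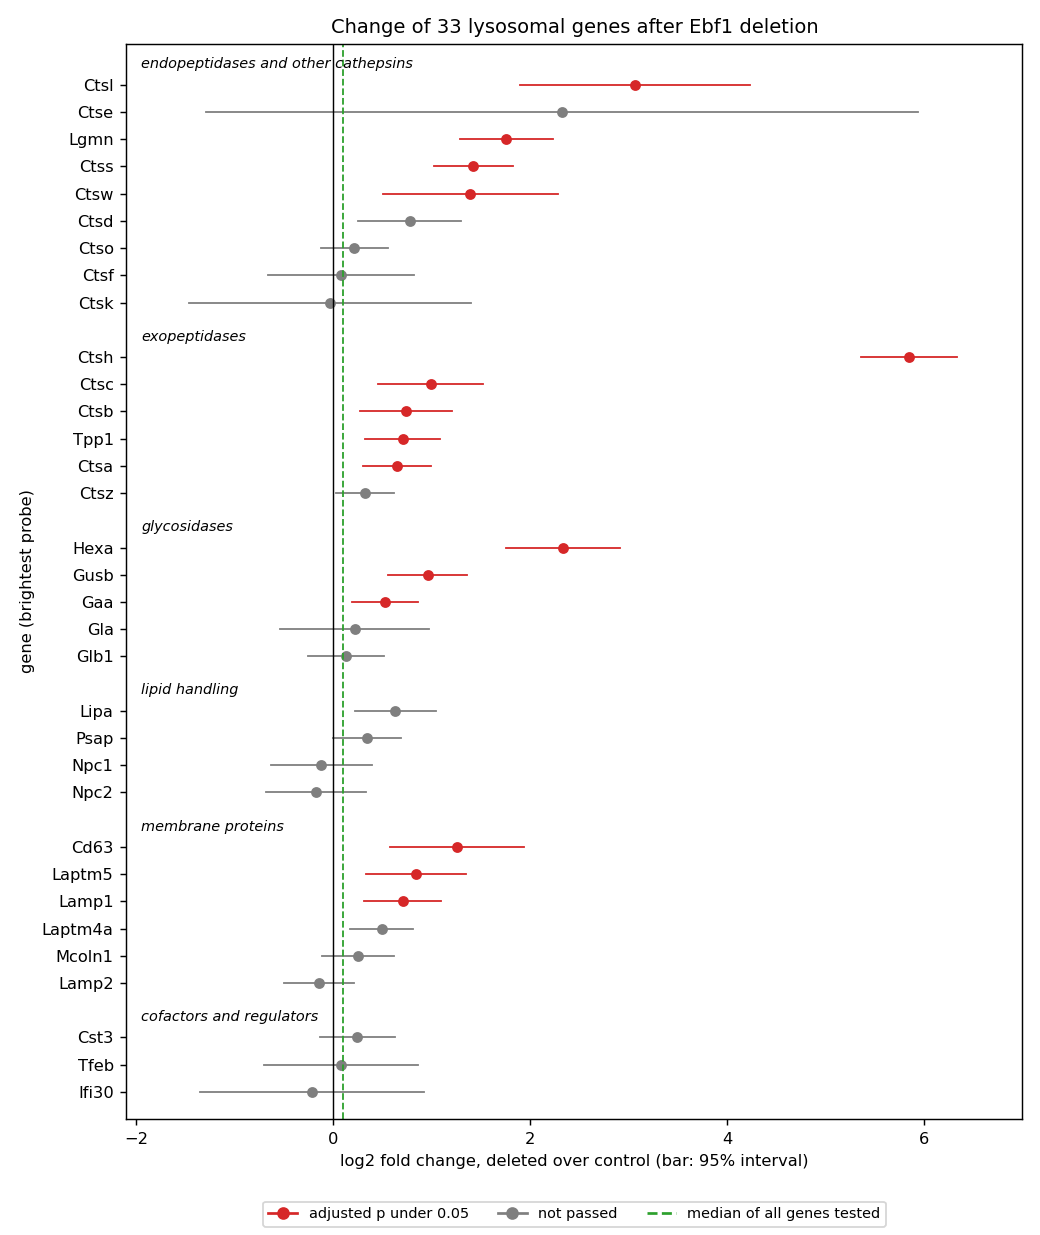
Log2 fold change of each of the 33 genes, deleted over control (horizontal axis), with the 95% interval as a bar and genes grouped by role (vertical axis). Red marks the 15 genes with an adjusted p under 0.05 and grey the 18 others, and the dashed green line is the median of all 13419 genes, 0.10; Ctsh stands apart at 5.85, and the interval of Ctse is the widest.

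Over the 15 genes that rose, deleted 5 was the highest of the deleted arrays for 9 and deleted 7 the lowest for 11. The same order held among all 1151 genes that rose, where deleted 5 was highest for 53.3% and deleted 7 lowest for 61.1%. The median distance of the 15 from the control mean was 0.97 on deleted 4, 1.17 on deleted 5 and 0.76 on deleted 7, while the median over all genes tested was 0.09, 0.18 and 0.03. Over single features, 23 of the 57 member features tested rose and 0 fell, against 5.93% and 6.88% of all features. Of these 23, 11 belong to Gusb.

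Other genes of the lysosome were taken from lists by role. Among 30 other acid hydrolases 10 rose and 1, Neu1, fell, with a median log2 fold change of 0.45. Over all genes tested 8.58% rose and 8.74% fell, with a median of 0.10. Acp5, a tartrate-resistant acid phosphatase, rose 4.33-fold (log2 fold change 2.12, SE 0.29, adjusted p = 0.0059), with levels of 1.47 and 2.43 on the controls and 4.23, 3.83 and 4.14 on deleted 4, 5 and 7. Sgsh, a sulfatase for heparan sulfate, rose 2.97-fold (adjusted p = 0.0033), and Man2b1, an alpha-mannosidase, rose 2.38-fold (adjusted p = 0.0057) but did not pass without control 3 (adjusted p = 0.0509). Without control 3 the number of these hydrolases that rose was 4.

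Of 23 other membrane proteins and transporters 3 rose and 1 fell, with a median of 0.29. For all genes tested the shares were 8.58% and 8.74%, and the median was 0.10. Laptm4b, a relative of Laptm4a, rose 6.01-fold (adjusted p = 0.011, SE 0.43 in log2 units), with levels of -4.85 and -5.60 on the controls and -2.32, -3.26 and -2.33 on the deleted arrays. Scarb2, the receptor that carries glucocerebrosidase to lysosomes, rose 1.80-fold (adjusted p = 0.015), a call lost without control 3 (adjusted p = 0.104). Litaf, a protein of late endosomes, fell by 2.12 on the log2 scale (SE 0.19, adjusted p = 0.0018). Slc15a4, a peptide and histidine transporter named after its values were seen, also rose (1.68-fold, adjusted p = 0.017). Without control 3, 1 member of the list rose.

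Of 17 V-ATPase subunits, which acidify the lysosome, 1 rose and 1 fell, with a median of 0.05, a count near the 8.58% and 8.74% of all genes. Atp6v0a1 rose 2.12-fold (adjusted p = 0.0097; 0.0678 without control 3), and Tcirg1, the subunit a3, fell by 0.61 (adjusted p = 0.035), a call that was lost in each fit without 1 array (adjusted p from 0.0645 to 0.149). Of 10 genes for mannose 6-phosphate tagging and sorting 1 rose, Gga2, a sorting adaptor (1.52-fold, adjusted p = 0.040), and it did not pass in any fit without 1 array (adjusted p from 0.0623 to 0.240). A count of 1 of 10 is likewise near that of all genes.

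Of 17 genes of the Tfeb family and of nutrient sensing at the lysosome 1 rose and 2 fell, with a median of 0.09. These counts are near the 8.58% and 8.74% of all genes, whose median was 0.10. Fnip2, a partner of folliculin, stayed below the 40th percentile on control 3 and control 6, which gives a difference of at least 2.61-fold. Fnip2 is the gene of this list that rose, and it passed the filter through the deleted arrays alone, so its direction was fixed by the filter. With no filter its adjusted p was 0.0055, and with the filter at the 60th percentile 0 genes of the list rose. Rptor, the subunit of mTORC1 that binds its substrates, fell by 1.55 (SE 0.14, adjusted p = 0.0019) at its brightest probe, but its probes taken as a mean gave -0.07. Rragd, a small GTPase that recruits mTORC1, fell by 1.23 (SE 0.20, adjusted p = 0.0097; 0.0734 without control 3). Of 4 tested cystatins and stefins, inhibitors of cysteine cathepsins, 0 passed. Cst7 had the widest difference among them, -1.54 (SE 0.93, adjusted p = 0.30), and it was 0.08 without control 3 and -3.16 without control 6.

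**Figure D4:**
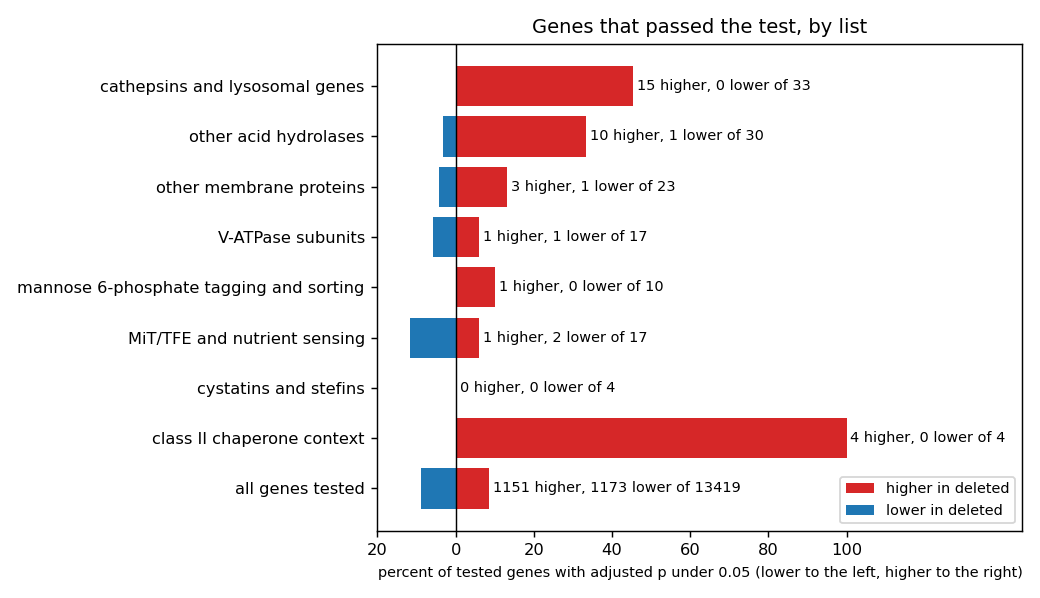
Share of tested genes with an adjusted p under 0.05 in each list (horizontal axis, percent; higher in deleted cells to the right in red, lower to the left in blue), with the counts printed beside each bar. The 33 cathepsins and lysosomal genes gave 15 higher and 0 lower, the other acid hydrolases 10 and 1 of 30, and all genes 1151 and 1173 of 13419.

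Genes that act with the antigen-cutting members were read in the same arrays. All 4 of the class II context list rose (Cd74, Ciita, H2-DMa and, named after its values were seen, H2-DMb1), against 8.58% of all genes. The list was chosen with earlier results of these data known, so its count cannot serve as a test. Cd74, the invariant chain that Ctss cuts, had levels of 2.02 and 2.52 on the controls and 6.90, 7.09 and 6.63 on deleted 4, 5 and 7. Ciita, the transactivator of class II genes, rose by 5.91 on the log2 scale, with 6.68 when control 3 and 5.14 when control 6 was left out (adjusted p at most 0.0123 without 1 array). H2-DMa, a chain of the peptide-loading factor, rose by 3.82.

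Markers of cell types rich in lysosomes were read beside these results. Their counts stand beside those of all genes tested, of which 8.58% rose and 8.74% fell. Of 15 macrophage markers 12 had a named probe and 7 were tested, of which 1 rose and 2 fell, and Adgre1, Mrc1, Mertk, C1qa and C1qc were too dim to test. The summed level of the macrophage list was 16.7 and 5.12 on controls 3 and 6 and 2.96 to 3.39 on the deleted arrays. Lyz2, a lysozyme that did not pass (adjusted p = 0.055), made up 61.1% to 86.0% of this sum, and without it the sum was 1.18 and 2.34 on the controls and 0.82 to 1.29 on the deleted arrays, which overlap. Fcgr1, an Fc receptor and the marker that rose, stayed below the 40th percentile on the controls, and deleted cells were at least 8.62-fold higher. It too passed the filter through the deleted arrays alone, which fixed its direction, and with no filter its adjusted p was 0.011. Lyz1 fell by 1.98 (adjusted p = 0.034), a call lost without control 3, deleted 4, deleted 5 or deleted 7 (adjusted p from 0.0534 to 0.105). Its log2 fold change was -1.14 without control 3 and -2.82 without control 6. Itgam fell by 2.09 (adjusted p = 0.049), and passed in the fit without deleted 4 (adjusted p = 0.0331), with -1.52, but in no other fit without 1 array (adjusted p from 0.0605 to 0.170).

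Of 9 dendritic cell markers 6 were tested, of which Ccr7, a chemokine receptor, rose 2.67-fold (adjusted p = 0.0090) and Flt3 fell by 1.30 (adjusted p = 0.034, and 0.0573 to 0.189 in the fits without 1 array). Clec9a, Siglech and Cd209a were too dim to test, and Itgax, Zbtb46, Batf3 and Xcr1 did not pass. Among all genes tested 8.58% rose and 8.74% fell. The summed level of the dendritic list was 8.93 and 13.6 on the controls and 24.9 to 30.7 on the deleted arrays. Ccr7 alone made up 92.1% to 97.9% of this sum, and without it the sum was 0.70 and 0.73 on the controls and 0.64 to 0.71 on the deleted arrays, which overlap. Of 10 neutrophil and mast cell markers with a named probe 3 were tested and 0 passed, the widest difference being 1.07 for Tpsb2 (adjusted p = 0.31), with summed levels of 0.22 and 0.25 on the controls and 0.25 to 0.27 on the deleted arrays. Of 12 stromal markers, which the OP-9 cells of the culture could bring, 7 were tested and 1 rose, Sparc (log2 fold change 1.63, adjusted p = 0.0053), while Col3a1, Dcn, Lum, Pdgfra and Vcam1 were too dim to test. For 5 of the 7 (Sparc, Col1a1, Col1a2, Bgn and Cxcl12) every deleted array lay above both controls, against 30.5% of all genes. The median log2 fold change of the 7 was 0.57, beside 0.63 for the lysosomal members and 0.10 for all genes tested. The summed level of the stromal list was 1.61 and 1.72 on the controls and 1.46 to 2.24 on the deleted arrays. Without Fn1, the fibronectin gene, which was lower on every deleted array without passing, it was 0.85 and 0.93 on the controls and 1.28 to 1.67 on the deleted arrays. The part of stromal cells in the lysosomal changes was not tested.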

How the data were processed

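RNA of 5 cultures was measured on 1-colour arrays, from 0.2 µg of total RNA per the labels' protocols. The values the authors deposited are linear intensities, 1 per feature, and the submitters' processing notes name Agilent Feature Extraction. Its version and its treatment of background and spot flags are not stated there. Of 45018 features 33653 had 1 gene symbol, 56 had several and 11309 had none in the platform annotation, and 33517 matched a RefSeq gene. Log2 intensities minus the 75th percentile of the array entered limma (version 3.58.1, R version 4.3.3) with a variance trend in eBayes and two-sided tests, 1 probe per gene (highest mean), with Benjamini-Hochberg adjustment over the 13419 of 19087 genes above the 40th percentile on at least 2 arrays. A group at or below that percentile on every array gives a lower limit of the fold change. Single features were fitted alike over 28007 probes. The fit was tested on simulated data (5 sets of 13419 genes, 200 changed), where it recovered 14.6% of 2-fold, 66.3% of 4-fold and 83.0% of 8-fold changes in this comparison. The number of arrays limits precision, and separate embryos for the samples of a group are not named in the labels, so p-values measure the spread between these samples, which may be technical. The members and lists were chosen with earlier results of these data known. All members are described, and from each other list the 3 widest changes among genes that passed, or the widest difference if 0 passed. List genes that no named probe measures were not analysed here, and protein sequences and probe positions were not used here. Alternatives were other scalings, filters, probe summaries, an offset of 50, other variance models, array weights and leaving out each array.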

Additional observations from a re-analysis of the deposited data

How the results depend on the processing

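No paired analysis was possible because the groups share no sample numbers. Leaving out 1 array gave 703 to 2009 genes called against 2324, 388 to 974 higher against 1151, 315 to 1035 lower against 1173, and 5 to 13 members called, all of them higher, against 15; fewer samples and genes enter these fits. Without the variance trend 7 members and 761 genes were higher, and without scaling between arrays 669 genes were higher and 11 members, while the share of called genes that were higher was 38.6% against 49.5%, and 56.4% with median scaling (18 members). The median log2 fold change of all genes was 0.10, and -0.04 without scaling and 0.15 with median scaling. In each of these settings 0 members were lower. Ctsd, Lipa and Laptm4a passed with median scaling and with quantile normalization (adjusted p from 0.0306 to 0.0495). Members that did not pass changed sign in some settings: without scaling Ctsf was -0.049, Glb1 -0.00047 and Tfeb -0.051; with array weights Ctsf was -0.064 and Ctsk 0.11; Ctsk was 0.026 with median scaling and 0.092 with the offset of 50; Npc1 was 0.10 as the mean of its probes. Without 1 array Ctsf ran from -0.035 to 0.30, Ctsk (which passed the filter in 3 of the 5 fits) from -0.57 to 0.33, Gla from -0.096 to 0.54, Npc2 from -0.35 to 0.0044, Ifi30 from -0.54 to 0.27, Tfeb from -0.21 to 0.37 and Cst7 from -3.16 to 0.083; beyond fewer samples the cause was not tested. The limit for Ctsw could not be computed at the 30th or 50th percentile. Signal over background is not known here, so levels near the 40th percentile have no firm order.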
